A study of Mus musculus with 16 samples.

Results

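The machinery of vesicle release was examined in sorted cells of the mouse olfactory mucosa as a set of 67 genes among the 19505 genes measured. The set was defined by gene symbol, with no threshold on a measured value: vesicular glutamate transporters (3 genes), R-SNAREs of the Vamp family (7), syntaxins (13), the SNAP-25 family (4), synaptotagmins (16), complexins (4), syntaxin-binding proteins (5), Munc13 priming factors (4), the Rims family of the active zone (4), Rab3 GTPases (4) and synapsins (3). Each of the 67 genes had 1 array feature. The marker named with the set, Slc17a6, encodes the vesicular glutamate transporter of olfactory sensory neurons.

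At a nerve terminal, glutamate is pumped into synaptic vesicles, which synapsins tether to each other and to the cytoskeleton and which Rab3 GTPases and Rims proteins bring to the active zone. A synaptobrevin of the Vamp family on the vesicle then zips together with a syntaxin and a SNAP-25 protein on the plasma membrane, under the guidance of Munc18 and Munc13 proteins, while complexins hold the complex and synaptotagmins trigger fusion when calcium enters. Olfactory sensory neurons release glutamate in this way onto the glomeruli of the olfactory bulb, and cells such as neutrophils, mast cells and glands secrete with other members of the same families.

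The cells came from 24 C57BL/6 mice of both sexes, 7 to 12 weeks old, that carried the S100a5-tauGFP allele, in which a green fluorescent protein reports the activity-dependent gene S100a5. All animals, the vehicle animals included, spent 40 h singly in clean-air chambers at an air flow of 3.1 L/min, and after 26 h they received pulses of 10 s every 20 min, which carried filtered air (vehicle) or whiskey lactone, a scent of oak-aged spirits (odor). Olfactory mucosa of 3 mice was pooled, dissociated and sorted by fluorescence into a GFP+ and a GFP- fraction, which gave 4 pools per treatment and 4 groups of 4 arrays: vehicle GFP+, vehicle GFP-, odor GFP+ and odor GFP-. Replicates were thus separate pools of mice, each pool averages 3 animals, and the labels used here give no sort gate.

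The sample titles and the cell type field name the fractions the opposite way on all 16 arrays, so the fractions are called here by their titles, and every signed fraction difference is titled GFP+ minus titled GFP-. It would change sign if the cell type field were used. S100a5, the gene whose reporter was sorted, was lower on the arrays titled GFP+ in both treatments, with log2 differences of -1.23 in vehicle and -1.34 in odor pools and adjusted p-values of 4.78e-07 and 2.07e-07. Omp, the marker of mature olfactory sensory neurons, did not pass the test in either treatment (differences -0.06 and -0.14). Of the 16 genes of a mature neuron list, none was at or below background on all arrays of a group. Background was taken as the median signal of the negative control features of an array, which ranged from 4.98 to 5.59 against a median of 6.62 to 7.13 over all genes. Between 48 and 54 of the 67 genes exceeded it on an array. Of the 67 genes, 48 exceeded it on all 16 arrays, 8 on some arrays, and 11 on none.

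Members passed in both directions between the fractions, and the split between higher and lower turned with the scaling of the arrays. In the vehicle pools 20 of the 67 genes (29.9%) passed the test, where 26% of all genes did; 6 were higher on the arrays titled GFP+ (12.3% of all genes) and 14 were lower (13.6%). In the odor pools 19 of the 67 (28.4%) passed, where 27.5% of all genes did, 6 higher (12.8%) and 13 lower (14.7%). The shares called in the set were thus near those over all genes in both treatments, and the median difference of the set was -0.14 in vehicle and -0.19 in odor pools, against -0.14 and -0.15 over all genes. The groups did not overlap for 20 genes in vehicle and 19 in odor pools, with 24.8% and 26.3% over all genes. After cyclic loess the split was 8 higher and 9 lower in vehicle and 9 and 8 in odor pools, and with each array centred on mature neuron genes it was 13 and 4 and 15 and 3. Without odor pool 1 the count of lower genes in odor pools was 7, and without odor pool 3 it was 8.

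The same 15 genes passed in both treatments and in the same direction. Of these, 5 were higher on the arrays titled GFP+, with 10.9% of all genes higher in both treatments: Stxbp2, Snap23, Vamp8, Stx11 and Stxbp6. The measured differences of all 5 were above 1 log2 unit in both treatments, which 8.24% of all genes reached with a call upwards in vehicle and 8.72% in odor pools. For Vamp8, Stx11 and Stxbp6 the arrays titled GFP- were below background, and the lower bounds of their fold changes ranged from 1.20 to 3.17. The other 10 were lower, with 8.75% of all genes lower in both: Slc17a6, Snap25, Syt1, Syt4, Syt16, Cplx2, Rab3a and the synapsins Syn1, Syn2 and Syn3. Among these, Syt4 alone reached a measured difference of 1 log2 unit, which 2.77% and 3.03% of all genes did downwards. A further 9 genes passed in 1 treatment, 5 in vehicle and 4 in odor pools, and 43 passed in neither. Because the samples are bulk fractions, fewer cells of a type and less RNA per cell cannot be told apart.

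**Figure D1:**
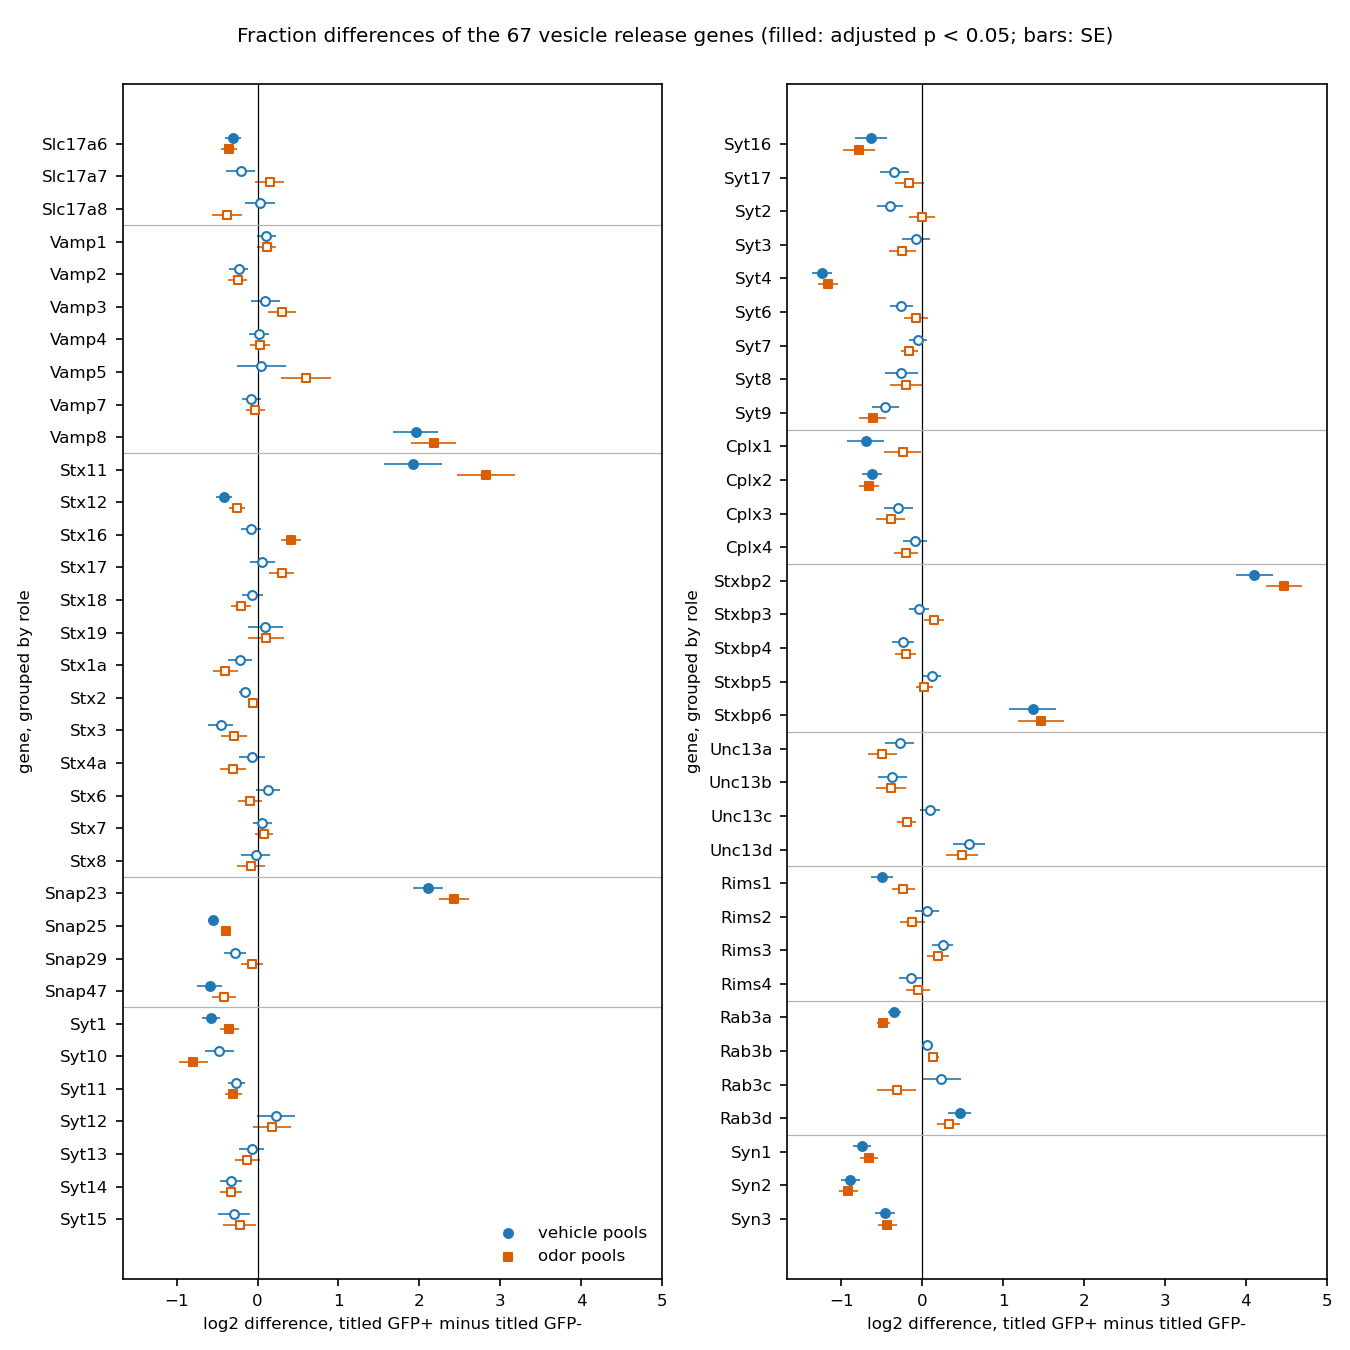
Log2 difference of each of the 67 genes, titled GFP+ minus titled GFP-, in vehicle pools (circles) and odor pools (squares), grouped by role with grey lines between roles; bars are standard errors and filled symbols have an adjusted p below 0.05. Stxbp2 lies farthest to the right at 4.11 and 4.48, Snap23, Vamp8, Stx11 and Stxbp6 follow, and Syt4 lies farthest to the left at -1.24 and -1.16.

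Promoter sequence is shown for the members that passed in both treatments with the scalings and left-out pools that were tried, as far as the RefSeq tables (build GRCm38.p6) give at least 100 bases in front of the gene, 3 that were higher and 2 that were lower on the arrays titled GFP+. Each line holds up to 250 bases that end at the base before the first annotated base of the gene, 5′ to 3′ on the strand of the gene, and capitals mark matches to the motifs described after the sequences.
Stxbp2, chr8:3630859-3630959, plus strand: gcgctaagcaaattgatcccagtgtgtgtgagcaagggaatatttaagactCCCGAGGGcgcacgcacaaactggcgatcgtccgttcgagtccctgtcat
Snap23, chr2:120567421-120567654, plus strand: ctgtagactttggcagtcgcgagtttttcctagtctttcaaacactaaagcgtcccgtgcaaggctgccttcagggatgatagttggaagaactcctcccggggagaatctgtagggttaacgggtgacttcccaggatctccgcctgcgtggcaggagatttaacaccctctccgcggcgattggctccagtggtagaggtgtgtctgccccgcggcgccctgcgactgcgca
Vamp8, chr6:72390668-72390917, minus strand: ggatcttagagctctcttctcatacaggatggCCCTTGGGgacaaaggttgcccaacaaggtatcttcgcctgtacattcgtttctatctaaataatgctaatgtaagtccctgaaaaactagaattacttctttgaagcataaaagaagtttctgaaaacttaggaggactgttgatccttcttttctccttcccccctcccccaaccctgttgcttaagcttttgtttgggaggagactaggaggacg
Syn1, chrX:20920919-20921168, minus strand: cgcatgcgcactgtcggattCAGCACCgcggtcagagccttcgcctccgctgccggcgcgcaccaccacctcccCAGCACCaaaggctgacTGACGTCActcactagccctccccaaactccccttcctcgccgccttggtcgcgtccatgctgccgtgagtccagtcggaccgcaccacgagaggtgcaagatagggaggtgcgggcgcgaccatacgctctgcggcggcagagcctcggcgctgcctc
Syn2, chr6:115134652-115134901, plus strand: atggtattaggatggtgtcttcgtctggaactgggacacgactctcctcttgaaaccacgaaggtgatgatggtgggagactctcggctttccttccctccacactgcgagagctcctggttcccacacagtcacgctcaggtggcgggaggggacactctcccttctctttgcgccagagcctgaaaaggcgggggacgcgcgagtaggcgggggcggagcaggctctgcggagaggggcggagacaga

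The motifs searched on both strands, in the 250 bases in front of each annotated start, were CCCNNGGG (the core bound by Ebf factors, which are abundant in olfactory neurons), CAGCACC (the left part of the site of the repressor REST), TGACGTCA (the cAMP response element) and GAGGAAGT (the core bound by PU.1, a factor of myeloid cells). CCCNNGGG and TGACGTCA read the same on both strands, and the matches printed above do not overlap. In the printed bases, Stxbp2 had CCCGAGGG starting 50 bases before the gene, Vamp8 had CCCTTGGG starting 218 bases before it, and Syn1 had CAGCACC at 230 and 176 and TGACGTCA at 159 bases, while Snap23 and Syn2 had none of the 4. Windows were listed for 53 of the 67 genes, 67 windows in all, and among the 15 genes called in both treatments Snap25, Syt4 and Syn3 were without one. CCCNNGGG stood in 11.8% of all 32851 windows and in 15 of the 67 windows of the set (22.4%), each of another gene. Of these 15 genes, 4 were among the 5 higher in both treatments (Stx11, Stxbp2, Stxbp6 and Vamp8), 1 among the lower (Cplx2), and 10 were called in neither treatment or in 1, a group with 19.6% of its 51 windows holding the motif. CAGCACC stood in 5.73% of all windows and 6 of the set, TGACGTCA in 1.55% and 2, and GAGGAAGT in 2.44% and 0. Of the 6 genes with CAGCACC, 2 were among the 5 higher in both treatments (Stx11 and Stxbp2) and 1 among the lower (Syn1). The other 3 (Slc17a8, Syt10 and Syt15) were called in neither treatment or in 1. The match of Stxbp2, on the other strand as GGTGCTG, lay outside its printed bases. A match of letters is a description of the window and is not evidence of a bound site.

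Of the vesicular glutamate transporters, which fill synaptic vesicles with glutamate, Slc17a6 alone lay above background. In vehicle pools 1 to 4, Slc17a6 had log2 signals of 15.01, 14.87, 14.91 and 15.03 on the arrays titled GFP- and 14.49, 14.63, 14.76 and 14.73 on those titled GFP+. In odor pools 1 to 4 its signals were 15.20, 14.99, 15.37 and 15.09 on the arrays titled GFP- and 14.60, 14.88, 14.79 and 14.99 on those titled GFP+. Slc17a6 was thus bright on every array, and the fractions did not overlap within either treatment, by a narrow margin. The difference was -0.30 (SE 0.10, adjusted p = 0.0392) in vehicle, a 1.23-fold change, and -0.35 (SE 0.10, adjusted p = 0.0184) in odor pools, a 1.27-fold change. The call was lost without vehicle pool 1 (adjusted p = 0.191), 2 (0.0750) or 4 (0.10) in the vehicle pools, and without odor pool 1 (0.112) or 3 (0.111) in the odor pools. It was also lost in both treatments after cyclic loess (0.13 in vehicle and 0.053 in odor pools) and without the variance trend (0.125 and 0.0781). Slc17a7 and Slc17a8, the transporters typical of cortical neurons and of inner hair cells, were at or below background on all 16 arrays.

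Among the R-SNAREs, which sit on the vesicle, Vamp8 was the single member that passed. Vamp8, the endosomal and granule R-SNARE of secretory and blood cells, had vehicle signals of 5.08, 4.72, 4.48 and 3.80 on the arrays titled GFP- and 7.07, 6.34, 6.63 and 5.85 on those titled GFP+. Its odor signals were 4.70, 5.04, 4.68 and 4.68 on the arrays titled GFP- and 7.74, 6.59, 7.50 and 5.97 on those titled GFP+. All 8 values titled GFP- were below background and all 8 titled GFP+ were above it, so that the fold change has only a lower bound. The arrays titled GFP+ were at least 1.95-fold higher in vehicle and at least 3.17-fold higher in odor pools, with measured differences of 1.95 (SE 0.27, adjusted p = 1.38e-04) and 2.18 (SE 0.27, adjusted p = 4.81e-05). Such a bound sets the mean of the brighter group against the background of the dimmer arrays in place of their own signal.

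Vamp2, the synaptobrevin of fast synaptic release, was bright, and its fractions overlapped in both treatments. Vehicle signals of Vamp2 were 14.81, 14.63, 15.17 and 14.94 on the arrays titled GFP- and 14.83, 14.42, 14.49 and 14.88 on those titled GFP+, and odor signals were 15.00, 15.18, 15.10 and 14.98 on the arrays titled GFP- and 14.74, 15.13, 14.48 and 14.94 on those titled GFP+. Neither difference passed the test, at -0.23 (SE 0.12, adjusted p = 0.163) and -0.24 (SE 0.12, adjusted p = 0.144). The remaining members did not pass either: the other neuronal synaptobrevin Vamp1 (0.11 in vehicle and 0.11 in odor pools), the ubiquitous Vamp3 (0.10 and 0.30), Vamp4 of the trans-Golgi network (0.01 and 0.03), Vamp7 of late endosomes (-0.08 and -0.03) and Vamp5 (0.05 and 0.60), which was at or below background on 15 of the 16 arrays.

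Syntaxins, the target membrane SNAREs, had 1 member that was higher in both treatments, Stx11, a syntaxin of immune cells and platelets needed for granule release. Stx11 had vehicle signals of 4.26, 3.97, 4.38 and 3.82 on the arrays titled GFP- and 6.65, 5.76, 5.57 and 6.15 on those titled GFP+. The odor signals of Stx11 were 3.78, 4.18, 3.51 and 4.07 on the arrays titled GFP- and 7.93, 6.16, 7.02 and 5.71 on those titled GFP+. As for Vamp8, every array titled GFP- was below background and every array titled GFP+ above it. Stx11 was at least 1.43-fold higher in vehicle and at least 2.67-fold higher in odor pools, with measured differences of 1.92 (SE 0.36, adjusted p = 0.00148) and 2.82 (SE 0.36, adjusted p = 5.33e-05).

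Stx1a, a plasma membrane syntaxin of synaptic release, did not pass in either treatment. Vehicle signals of Stx1a were 9.79, 9.10, 9.08 and 9.54 on the arrays titled GFP- and 9.23, 8.95, 9.20 and 9.29 on those titled GFP+, and its odor signals were 9.80, 9.90, 9.60 and 9.54 on the arrays titled GFP- and 9.17, 9.28, 9.36 and 9.44 on those titled GFP+. The fractions overlapped in vehicle pools and not in odor pools, with differences of -0.21 (SE 0.15, adjusted p = 0.318) and -0.40 (SE 0.15, adjusted p = 0.0672). Stx12, an endosomal syntaxin, was lower in vehicle pools, where its signals were 13.83, 14.07, 14.46 and 13.93 on the arrays titled GFP- and 13.42, 13.74, 13.68 and 13.81 on those titled GFP+. Those values did not overlap, and the difference was -0.41 (SE 0.09, adjusted p = 0.00605), against -0.25 (SE 0.09, adjusted p = 0.0673) in odor pools. Stx16, a syntaxin of the Golgi, was higher in odor pools, with signals of 9.84, 9.89, 9.67 and 9.81 on the arrays titled GFP- and 10.42, 10.12, 10.10 and 10.23 on those titled GFP+, a difference of 0.41 (SE 0.12, adjusted p = 0.0253). In vehicle pools its difference was -0.08. The odor call of Stx16 held in 12 of 16 other settings, such as other scalings and left-out pools. With each array centred on its median, the difference of Stx16 was 0.03 in odor pools, without a call, and -0.45 in vehicle pools, with a call. Among the other members without a call, Stx3, a syntaxin of ribbon synapses and apical membranes, came nearest with -0.46 (SE 0.16, adjusted p = 0.0517) in vehicle pools; Stx2, Stx4a, Stx6, Stx7, Stx8, Stx17 and Stx18 lay above background on all arrays, and Stx19 at or below it on all.

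The SNAP-25 family supplies the partner of syntaxin on the target membrane, and its members moved in opposite directions. Snap23, the form used by most cells outside the nervous system, had vehicle signals of 9.29, 8.66, 8.83 and 9.47 on the arrays titled GFP- and 11.45, 10.72, 11.25 and 11.28 on those titled GFP+. In the odor pools Snap23 was measured at 8.73, 8.77, 8.90 and 8.93 on the arrays titled GFP- and 11.67, 10.76, 11.80 and 10.83 on those titled GFP+. The lowest array titled GFP+ stood above the highest titled GFP- by more than 1 log2 unit in each treatment. Snap23 was 4.32-fold higher in vehicle (log2 difference 2.11, SE 0.18, adjusted p = 1.65e-06) and 5.40-fold higher in odor pools (log2 difference 2.43, SE 0.18, adjusted p = 4.05e-07).

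Snap25, the neuronal form, was among the bright members on every array. Its vehicle signals were 16.19, 16.17, 16.44 and 16.20 on the arrays titled GFP- and 15.71, 15.64, 15.84 and 15.64 on those titled GFP+, and its odor signals were 16.19, 16.50, 16.30 and 16.40 on the arrays titled GFP- and 15.73, 16.23, 15.81 and 16.09 on those titled GFP+. The fractions were separate in vehicle pools, while in odor pools the value of pool 2 titled GFP+ exceeded the lowest value titled GFP-; within each of the 8 pools the array titled GFP+ was the lower one. Snap25 was 1.46-fold lower in vehicle (log2 difference -0.55, SE 0.06, adjusted p = 1.55e-05) and 1.30-fold lower in odor pools (log2 difference -0.38, SE 0.06, adjusted p = 3.35e-04). Snap47, a relative found on inner membranes, was lower in vehicle pools at -0.59 (SE 0.15, adjusted p = 0.0122) from signals of 11.75, 11.75, 12.54 and 11.51 on the arrays titled GFP- and 11.14, 11.24, 11.47 and 11.32 on those titled GFP+, and not called in odor pools at -0.41 (SE 0.15, adjusted p = 0.0610). Without vehicle pool 3, its vehicle difference was -0.43 with an adjusted p of 0.0714. Snap29, which serves in autophagy and endosomal fusion, did not pass, at -0.27 and -0.07.

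**Figure D2:**
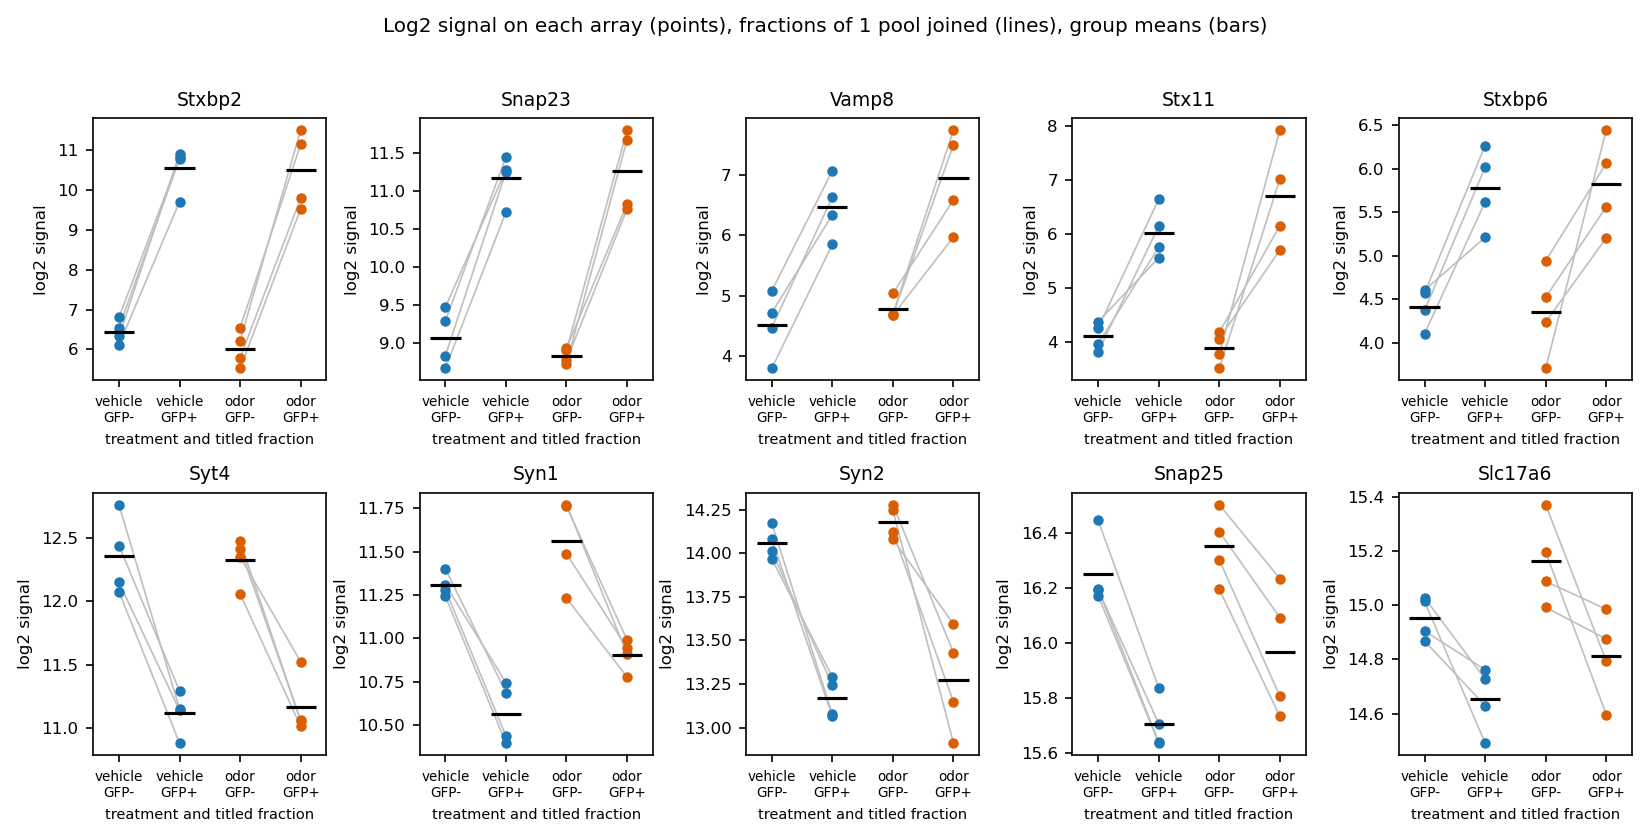
Log2 signal of 10 members on each of the 16 arrays, by treatment and titled fraction; points are arrays, grey lines join both fractions of 1 pool, and black bars are group means. In the upper row (Stxbp2, Snap23, Vamp8, Stx11, Stxbp6) every array titled GFP+ lies above every array titled GFP- of its treatment, and in the lower row (Syt4, Syn1, Syn2, Snap25, Slc17a6) every line falls from GFP- to GFP+.

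Synaptotagmins, vesicle proteins with calcium-binding domains, had no member that was higher. Of the 16 members, 3 were lower in vehicle pools (18.8%, with 13.6% of all genes) and 6 in odor pools (37.5%, with 14.7%). Syt1, the fast calcium sensor of synaptic vesicles, had vehicle signals of 15.36, 15.41, 15.76 and 15.40 on the arrays titled GFP- and 14.67, 14.90, 14.92 and 15.14 on those titled GFP+. In odor pools Syt1 was measured at 15.40, 15.37, 15.34 and 15.23 on the arrays titled GFP- and 14.86, 15.30, 14.64 and 15.17 on those titled GFP+. The fractions of Syt1 were separate in vehicle pools and overlapped in odor pools. Its differences were -0.57 (SE 0.12, adjusted p = 0.00254) and -0.35 (SE 0.12, adjusted p = 0.0414). The odor call was lost without odor pool 1 (adjusted p = 0.174) or 3 (0.222) and without vehicle pool 1 (0.0539) or 2 (0.0532), which share the estimate of the spread, and also after cyclic loess (0.114), without the pool block (0.0622) and without the variance trend (0.116).

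Syt4, a synaptotagmin of dense-core vesicles with altered calcium binding whose transcript follows neuronal activity, had the largest downward difference of the set. Vehicle signals of Syt4 were 12.08, 12.15, 12.76 and 12.44 on the arrays titled GFP- and 10.88, 11.14, 11.15 and 11.29 on those titled GFP+, and its odor signals were 12.41, 12.06, 12.47 and 12.35 on the arrays titled GFP- and 11.06, 11.01, 11.06 and 11.52 on those titled GFP+. No array titled GFP+ reached the lowest array titled GFP- of its treatment. Syt4 was 2.36-fold lower in vehicle (log2 difference -1.24, SE 0.13, adjusted p = 7.13e-06) and 2.23-fold lower in odor pools (log2 difference -1.16, SE 0.13, adjusted p = 1.20e-05). Syt16, a synaptotagmin relative, had vehicle signals of 7.32, 7.79, 7.09 and 7.37 on the arrays titled GFP- and 6.38, 7.11, 6.90 and 6.66 on those titled GFP+ and odor signals of 7.63, 7.93, 7.62 and 7.50 on the arrays titled GFP- and 6.44, 7.06, 6.73 and 7.32 on those titled GFP+. Its fractions overlapped in vehicle pools by a single array titled GFP-, that of pool 3, and not in odor pools. The differences of Syt16 were -0.63 (SE 0.20, adjusted p = 0.0318) and -0.78 (SE 0.20, adjusted p = 0.00978). The vehicle call was lost without vehicle pool 1 (adjusted p = 0.141), 2 (0.0897) or 4 (0.0978) and after cyclic loess (0.0622), and the odor call without odor pool 1 (0.0612).

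Syt10, which triggers release of insulin-like growth factor in olfactory bulb neurons, passed in odor pools, with signals of 8.29, 8.68, 8.32 and 8.47 on the arrays titled GFP- and 7.46, 7.86, 7.25 and 8.01 on those titled GFP+ and a difference of -0.79 (SE 0.18, adjusted p = 0.00489). Syt9, a calcium sensor of fast release, passed there too, at -0.61 (SE 0.17, adjusted p = 0.0151), and so did Syt11, which lacks calcium binding, at -0.30 (SE 0.10, adjusted p = 0.0457). Of 16 other settings, such as other scalings and left-out pools, the odor call held in 15 for Syt10, 12 for Syt9 and 6 for Syt11. Syt9 and Syt11 lost it after cyclic loess, and Syt9, Syt10 and Syt11 with each array centred on mature neuron genes. In vehicle pools the differences of these genes were -0.47 (SE 0.18, adjusted p = 0.0711) for Syt10, -0.46 (SE 0.17, adjusted p = 0.0609) for Syt9 and -0.26 (SE 0.10, adjusted p = 0.0812) for Syt11. Syt7, the slow calcium sensor, did not pass at -0.05 and -0.16, and neither did Syt3, Syt12, Syt14 and Syt15. Syt2, the fast sensor of hindbrain and neuromuscular synapses, and Syt6, Syt8, Syt13 and Syt17 were at or below background on all 16 arrays.

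Complexins bind the assembled SNARE complex, and Cplx2 was the member above background on all arrays. Cplx2 had vehicle signals of 10.94, 11.47, 11.54 and 11.40 on the arrays titled GFP- and 10.58, 10.95, 10.91 and 10.44 on those titled GFP+ and odor signals of 11.32, 11.73, 11.49 and 11.44 on the arrays titled GFP- and 10.57, 10.81, 10.90 and 11.08 on those titled GFP+. The fractions overlapped slightly in vehicle pools and not in odor pools, and within every pool the array titled GFP+ was lower. Cplx2 was 1.53-fold lower in vehicle (log2 difference -0.62, SE 0.13, adjusted p = 0.00274) and 1.57-fold lower in odor pools (log2 difference -0.65, SE 0.13, adjusted p = 0.00166). Cplx1 passed in vehicle pools at -0.70 (SE 0.23, adjusted p = 0.0401), although all 4 arrays titled GFP+ and 3 of the 4 titled GFP- were at or below background there, so no fold is given. In odor pools its difference was -0.24. The Cplx1 call was lost without any 1 of vehicle pools 1 (adjusted p = 0.133), 3 (0.163) and 4 (0.0791) or odor pool 4 (0.0502), after cyclic loess (0.0746) and without the pool block (0.0657). Cplx3 and Cplx4, the complexins of retinal ribbon synapses, were at or below background on all 16 arrays.

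The largest difference of the whole set lay among the syntaxin-binding proteins, which steer syntaxins into SNARE complexes. Stxbp2, known as Munc18-2 and used with Stx11 in granule release by immune cells, had vehicle signals of 6.81, 6.11, 6.55 and 6.33 on the arrays titled GFP- and 10.82, 9.71, 10.79 and 10.92 on those titled GFP+. In odor pools Stxbp2 was measured at 6.22, 5.79, 6.54 and 5.53 on the arrays titled GFP- and 11.51, 9.79, 11.15 and 9.53 on those titled GFP+. Both fractions were above background on all arrays, and the lowest array titled GFP+ exceeded the highest titled GFP- by over 2 log2 units. Stxbp2 was 17.2-fold higher in vehicle (log2 difference 4.11, SE 0.22, adjusted p = 1.91e-08) and 22.2-fold higher in odor pools (log2 difference 4.48, SE 0.22, adjusted p = 7.80e-09).

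Stxbp6, or amisyn, a soluble protein that binds syntaxin and SNAP-25 and restrains fusion, was higher on the arrays titled GFP+ too. Its vehicle signals were 4.57, 4.60, 4.10 and 4.37 on the arrays titled GFP- and 6.27, 5.21, 5.62 and 6.02 on those titled GFP+, and its odor signals were 3.71, 4.52, 4.94 and 4.24 on the arrays titled GFP- and 6.45, 5.56, 6.06 and 5.21 on those titled GFP+. All 8 arrays titled GFP- were at or below background, as was 1 array titled GFP+ in each treatment. The lower bounds were 1.20-fold in vehicle and 1.45-fold in odor pools, with measured differences of 1.37 (SE 0.29, adjusted p = 0.00352) and 1.47 (SE 0.29, adjusted p = 0.00190). Stxbp3 (-0.04 and 0.15), which serves glucose transporter vesicles, Stxbp4 (-0.23 and -0.20) and the tomosyn Stxbp5 (0.12 and 0.03), a brake on SNARE assembly, did not pass in vehicle or odor pools.

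None of the Munc13 priming factors, which open syntaxin for assembly, passed in either treatment. Unc13a, the main form at glutamatergic synapses, had vehicle signals of 7.60, 7.64, 7.60 and 7.01 on the arrays titled GFP- and 6.84, 7.69, 7.10 and 7.09 on those titled GFP+ and odor signals of 7.32, 7.53, 7.64 and 7.48 on the arrays titled GFP- and 6.81, 7.06, 7.06 and 7.08 on those titled GFP+. Its fractions overlapped in vehicle pools and were separate in odor pools, with differences of -0.28 (SE 0.18, adjusted p = 0.277) and -0.49 (SE 0.18, adjusted p = 0.0602). Unc13d, the form of immune cells that primes lytic and azurophilic granules, had differences of 0.58 (SE 0.20, adjusted p = 0.0510) and 0.49 (SE 0.20, adjusted p = 0.0882), just outside the threshold in vehicle pools, and was above background on no array titled GFP- in vehicle and 1 in odor pools. In vehicle pools, 3 of the 4 arrays titled GFP+ were at or below background too. Of 16 other settings, such as other scalings and left-out pools, Unc13d was called higher in 5 in vehicle and 1 in odor pools. Unc13b and Unc13c had differences of -0.37 and 0.10 in vehicle and of -0.38 and -0.19 in odor pools.

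Of the Rims scaffolds, which link Rab3, Munc13 and calcium channels at the active zone, Rims1 passed in vehicle pools. Rims1 had vehicle signals of 10.95, 11.05, 10.24 and 10.95 on the arrays titled GFP- and 10.51, 10.70, 9.78 and 10.21 on those titled GFP+ and odor signals of 10.62, 11.16, 10.54 and 10.88 on the arrays titled GFP- and 10.21, 11.18, 10.64 and 10.24 on those titled GFP+. The fractions overlapped in both treatments, although the array titled GFP+ was lower within each of the 4 vehicle pools. The differences were -0.50 (SE 0.14, adjusted p = 0.0180) in vehicle and -0.23 (SE 0.14, adjusted p = 0.234) in odor pools, and the vehicle call was lost without vehicle pool 1 (adjusted p = 0.0521) or 4 (0.0902), after cyclic loess (0.0992), without the pool block (0.151) and with a random pool block (0.0881). Rims2 (0.06 and -0.12) and Rims3 (0.25 and 0.19) did not pass, and Rims4 was at or below background on all 16 arrays.

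Rab3 GTPases recruit vesicles to the release site, and in vehicle pools the neuronal form was lower and the secretory form higher. Rab3a, the main synaptic form, had vehicle signals of 15.61, 15.55, 15.53 and 15.64 on the arrays titled GFP- and 15.26, 15.16, 15.21 and 15.34 on those titled GFP+. Odor signals of Rab3a were 15.64, 15.85, 15.73 and 15.56 on the arrays titled GFP- and 14.91, 15.43, 15.14 and 15.36 on those titled GFP+. No array titled GFP+ reached an array titled GFP- of its treatment. Rab3a was 1.27-fold lower in vehicle (log2 difference -0.34, SE 0.08, adjusted p = 0.00679) and 1.40-fold lower in odor pools (log2 difference -0.48, SE 0.08, adjusted p = 5.38e-04). Rab3d, the form of exocrine and mast cells, was higher in vehicle pools, with signals of 7.57, 7.51, 7.62 and 7.78 on the arrays titled GFP- and 8.16, 7.89, 8.15 and 8.12 on those titled GFP+. The groups did not overlap in either treatment, and the differences were 0.46 (SE 0.15, adjusted p = 0.0336) and 0.33 (SE 0.15, adjusted p = 0.114). The vehicle call was lost without any 1 vehicle pool (adjusted p from 0.0664 to 0.125). With median centring the Rab3d difference was 0.10 (adjusted p = 0.558), and without the variance trend the vehicle call of Rab3a was lost (adjusted p = 0.0589). Rab3b and Rab3c did not pass, at 0.07 and 0.24 in vehicle and 0.14 and -0.32 in odor pools.

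Synapsins, the phosphoproteins that hold the reserve pool of vesicles, were lower in all 3 members and in both treatments. Syn1 had vehicle signals of 11.24, 11.31, 11.40 and 11.28 on the arrays titled GFP- and 10.40, 10.75, 10.69 and 10.44 on those titled GFP+ and odor signals of 11.23, 11.76, 11.77 and 11.49 on the arrays titled GFP- and 10.78, 10.99, 10.91 and 10.95 on those titled GFP+. Syn2 had vehicle signals of 13.97, 14.08, 14.17 and 14.01 on the arrays titled GFP- and 13.29, 13.07, 13.08 and 13.25 on those titled GFP+ and odor signals of 14.25, 14.08, 14.12 and 14.28 on the arrays titled GFP- and 12.91, 13.59, 13.15 and 13.43 on those titled GFP+. For both genes no array titled GFP+ reached an array titled GFP- of its treatment. Syn1 was 1.67-fold lower in vehicle (log2 difference -0.74, SE 0.11, adjusted p = 2.02e-04) and 1.58-fold lower in odor pools (log2 difference -0.66, SE 0.11, adjusted p = 5.16e-04). Syn2 was 1.85-fold lower in vehicle (log2 difference -0.89, SE 0.12, adjusted p = 9.55e-05) and 1.88-fold lower in odor pools (log2 difference -0.91, SE 0.12, adjusted p = 6.93e-05). Syn3, the synapsin of developing neurons, had vehicle signals of 12.45, 12.07, 12.86 and 12.40 on the arrays titled GFP- and 12.11, 11.75, 11.96 and 12.13 on those titled GFP+ and odor signals of 12.30, 12.80, 12.51 and 12.43 on the arrays titled GFP- and 11.87, 12.52, 11.79 and 12.14 on those titled GFP+. The Syn3 fractions overlapped in both treatments, and within each of the 8 pools the array titled GFP+ was lower. Its differences were -0.46 (SE 0.12, adjusted p = 0.0128) and -0.43 (SE 0.12, adjusted p = 0.0175). The vehicle call was lost without vehicle pool 3 (adjusted p = 0.0649), and the odor call without odor pool 1 (0.0551) or 3 (0.109). Both calls were lost after cyclic loess (0.066 in vehicle and 0.109 in odor pools) and without the pool block (0.0668 and 0.0837).

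Markers of several other cell types differed between the fractions too. Over all genes, 12.3% were higher and 13.6% lower in vehicle pools, and 12.8% and 14.7% in odor pools. Of 8 markers of ensheathing glia, fibroblasts and endothelium, 1 was higher and none lower in each treatment. All 11 neutrophil markers were higher on the arrays titled GFP+ in both treatments, and their summed log2 level ranged from 18.62 to 19.29 there against 10.13 to 11.56 on the arrays titled GFP- in vehicle pools, and from 18.13 to 19.73 against 9.90 to 11.67 in odor pools. Of 12 macrophage markers, 12 were higher in vehicle and 11 in odor pools, with summed levels of 15.61 to 16.78 against 9.48 to 10.56 and of 15.44 to 17.39 against 9.19 to 10.59. On the arrays titled GFP- the neutrophil markers Mmp9 and Camp and the macrophage markers Tyrobp and Aif1 were at or below background on all arrays of both treatments. The microvillar and brush cell list was higher in 11 of 11 genes, the sustentacular cell list in 7 of 9 (6 in odor pools) and the mast cell and basophil list in 4 of 8. In this last list Fcer1a, Mcpt4, Tpsb2 and Cma1 were at or below background on all 16 arrays, and Ms4a2 on all vehicle arrays. Its 4 vehicle calls thus included a gene at or below background in both fractions. In vehicle pools, 6 of 9 lymphocyte, 4 of 5 erythroid, 5 of 7 globose basal cell and 4 of 8 gland markers were higher, 6 of 12 immature neuron genes were higher and 1 lower, and 5 of 8 markers of ciliated cells were lower. Ltf, which was higher, is in both the gland and the neutrophil list. The gland markers Muc5b, Odam and Obp1a were at or below background on all vehicle arrays. Mature neuron genes were lower in 10 of 16 in vehicle and 9 of 16 in odor pools, and none was higher; their summed level was 21.08 to 21.15 against 21.28 to 21.32 and 21.05 to 21.21 against 21.28 to 21.34. The part of these cell types in the fraction differences of the vesicle release genes was not tested.

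Other genes of the pathway, in lists outside the 67 genes, gave counts in both directions. Of 28 measured proteins of synaptic vesicles and the active zone, 3 were higher and 11 lower in vehicle pools and 2 higher and 12 lower in odor pools, with medians of -0.26 and -0.31. That was 50% called in each treatment, with 26% and 27.5% of all genes. The calls included genes at or below background in both groups, Synpr in vehicle pools and Rph3a and Sncg in odor pools, all lower. Syngr2, the synaptogyrin of non-neuronal cells, was higher at 3.21 (SE 0.22, adjusted p = 1.94e-07) in vehicle and 3.35 (SE 0.22, adjusted p = 1.21e-07) in odor pools, while Syngr1, its neuronal relative, was lower at -1.31 (SE 0.10, adjusted p = 3.35e-07) and -1.33 (SE 0.10, adjusted p = 2.77e-07). Cadps2, which primes dense-core vesicles, was higher at 2.36 (SE 0.32, adjusted p = 1.07e-04) and 3.13 (SE 0.32, adjusted p = 7.24e-06), and Sypl, a synaptophysin relative of many tissues, was higher in vehicle pools at 0.92 (SE 0.20, adjusted p = 0.00408). Among 21 genes for SNARE recycling and trafficking inside the cell, 4 (19%) were lower and none higher in each treatment, below the 26% and 27.5% of all genes called. Nsf, the ATPase that takes spent SNARE complexes apart, was lower at -0.71 (SE 0.10, adjusted p = 9.26e-05) and -0.65 (SE 0.10, adjusted p = 1.86e-04), as was its cofactor Napb at -0.44 (SE 0.09, adjusted p = 0.00289) and -0.52 (SE 0.09, adjusted p = 8.00e-04). Sec22c was lower at -0.49 and -0.51, and Sec22b, an R-SNARE between endoplasmic reticulum and Golgi, was lower in vehicle pools at -0.37.

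Genes of granule docking, 13 measured, were higher in 3 and lower in 2 in vehicle pools (38.5% called, with 26% of all genes) and higher in 2 and lower in 1 in odor pools (23.1%, with 27.5%). Rab27a, which docks granules in blood cells, was higher by 4.77 (adjusted p = 1.06e-06) in vehicle and 4.68 (1.18e-06) in odor pools, and Rab27b by 1.31 and 1.30. Rab37, another granule GTPase, was lower at -0.91 and -1.03, and the Rab27 effector Mlph passed in vehicle pools at 0.65 although both groups were below background. Of 14 genes of vesicle endocytosis, 2 were higher and 2 lower in vehicle pools (28.6% called) and 1 higher and 2 lower in odor pools (21.4%), near the shares of all genes. The ubiquitous dynamin Dnm2 was higher at 0.43 and 0.53 and the clathrin adaptor Snap91 lower at -0.37 and -0.30; in vehicle pools the amphiphysins Amph (-0.45) and Bin1 (0.39) passed in opposite directions. Of 9 transporters and enzymes of other transmitters, none passed in vehicle pools and 2 were higher in odor pools, of which Gad2 was below background in both groups. The second was Slc17a9, the vesicular ATP transporter, at 1.18, whose arrays titled GFP- were all at or below background.

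The direction of the modest differences depended on how the arrays were scaled, because scaling moved the median difference of all genes. That median was -0.14 in vehicle and -0.15 in odor pools as deposited, -0.51 and -0.53 with each array centred on its median, -0.02 and -0.02 after cyclic loess, and 0.19 and 0.14 with each array centred on the mature neuron list. The median of the 67 genes moved with it, to -0.51 and -0.57, -0.01 and -0.04, and 0.20 and 0.10. In vehicle pools the split of the calls was 6 higher and 14 lower as deposited, 5 and 46 with median centring, 8 and 9 after loess, and 13 and 4 with neuron centring; in odor pools it was 6 and 13, 5 and 49, 9 and 8, and 15 and 3. Stxbp2, Snap23, Vamp8, Stx11 and Stxbp6 stayed higher and Syt4, Syn1 and Syn2 stayed lower in both treatments under these and the other settings, 16 in all. Snap25 stayed lower under all 16 in vehicle pools and lost the call with neuron centring in odor pools (-0.10). Relative to the mature neuron genes the differences of Slc17a6 (0.04 and -0.06), Rab3a (-0.01 and -0.19), Syt1 (-0.24 and -0.06), Cplx2 (-0.28 and -0.36), Syt16 (-0.30 and -0.50) and Syn3 (-0.12 and -0.14) did not pass, and the sign of Slc17a6 turned in vehicle pools.

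**Figure D3:**
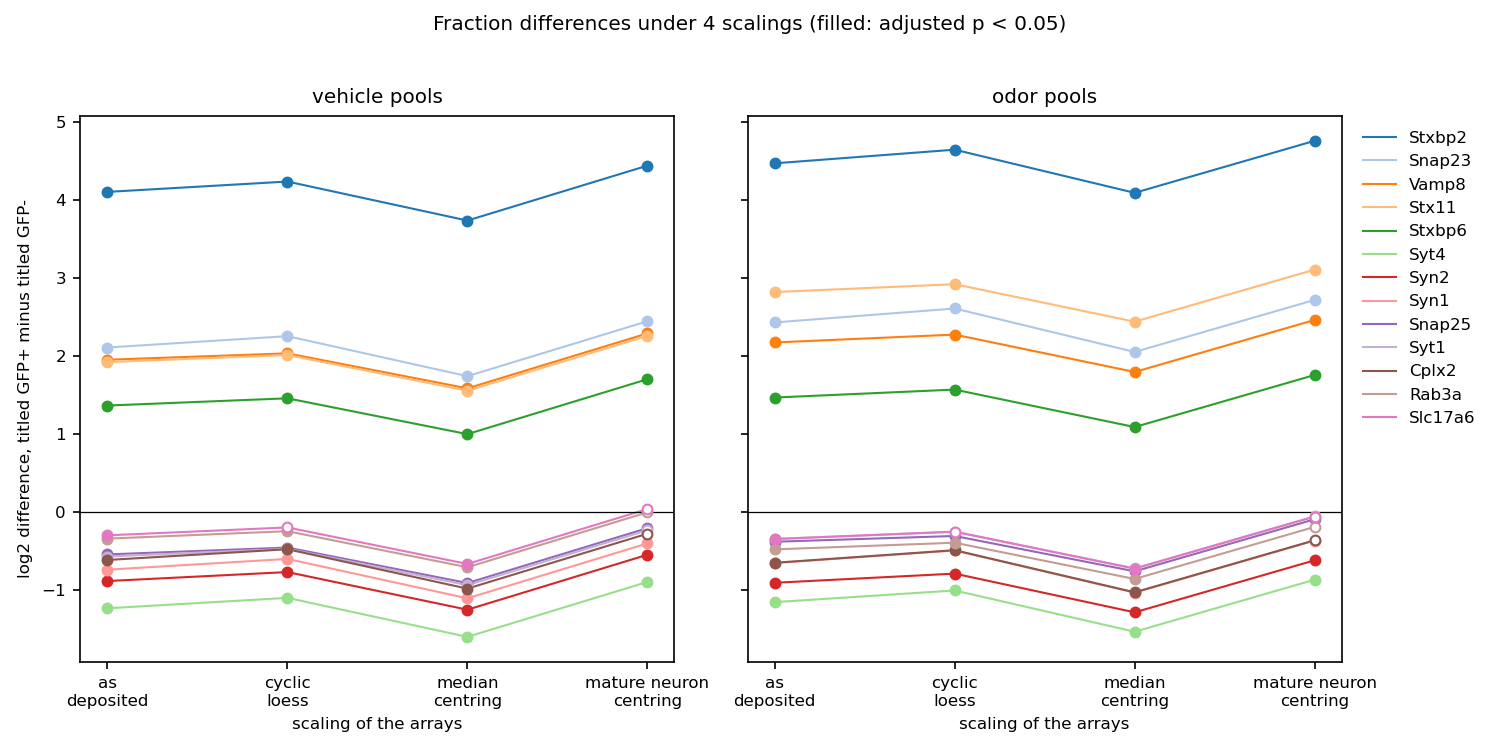
Log2 difference, titled GFP+ minus titled GFP-, of 13 members under 4 scalings of the arrays, in vehicle pools (left) and odor pools (right); filled points have an adjusted p below 0.05. All 5 members above 0 stay above it throughout, Syt4, Syn2 and Syn1 stay below it with filled points, and Slc17a6 reaches 0.04 with mature neuron centring in vehicle pools.

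Whether the odor changed the fraction difference was tested as the difference of the contrasts, odor minus vehicle. No member passed, and 1 gene of all (0.00513%) did. At an unadjusted p below 0.05, limma gave 1 of the 67 genes (1.49%) and 3.27% of all genes. That gene was Stx16: its fraction difference was -0.08 in vehicle and 0.41 in odor pools, a change of 0.49 with a 95% confidence interval of 0.11 to 0.87 and an adjusted p of 0.999. The next smallest p-values belonged to Snap25, with a change of 0.16 (-0.02 to 0.35), and Stx11, with 0.90 (-0.21 to 2.00). The half-width of this interval was 0.19 to 1.11 log2 units over the 67 genes, with a median of 0.46, which limits what could be detected.

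Odor and vehicle were also compared within each fraction, where pools of different mice stand against each other. Of the 67 genes none passed in either fraction, against 0.00513% of all genes on the arrays titled GFP+ and 0% on those titled GFP-. Unadjusted p-values below 0.05 were found for 4 members (5.97%, with 4.88% of all genes) on the arrays titled GFP+ and for 2 (2.99%, with 5.88%) on those titled GFP-. With the replicate number as a block, these counts were 5 (7.46%, with 5.42% of all genes) and 5 (7.46%, with 9.75%), and again no member passed. On the arrays titled GFP+, Snap25 had the smallest p-value, and the signals given above overlapped between treatments, with a difference of 0.26 (SE 0.10, adjusted p = 1.000). On those arrays the treatments did not overlap for 3 members, with 2.38% of all genes: Syn1 and Stx16 were higher in all odor pools, with differences of 0.34 (SE 0.13, adjusted p = 1.000) and 0.29 (SE 0.12, adjusted p = 1.000), and Stx18 was lower, at -0.17 (SE 0.13, adjusted p = 1.000).

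Stx8, a syntaxin of late endosomes, had values of 10.43, 10.55, 10.08 and 9.80 in vehicle and 10.20, 9.43, 9.66 and 9.77 in odor pools on the arrays titled GFP+, which overlapped, and a difference of -0.45 (SE 0.18, adjusted p = 1.000). On the arrays titled GFP-, Stx8 had values of 10.03, 10.27, 10.48 and 10.17 and 9.76, 9.86, 9.78 and 9.98, the 1 member without overlap there (4.45% of all genes), and a difference of -0.39 (SE 0.18, adjusted p = 0.848). Stx17, the syntaxin of autophagosomes, had values there of 9.38, 9.14, 9.11 and 9.37 and 8.63, 8.83, 8.59 and 9.19 and a difference of -0.44 (SE 0.21, adjusted p = 0.848). The third gene by p-value on these arrays was Slc17a6, at 0.21 (SE 0.10, adjusted p = 0.848). Among the 48 members above background on all 16 arrays, the 95% interval of odor minus vehicle excluded a 2-fold change in either direction for 48 on the arrays titled GFP+ and for 47, all but Stxbp2, on those titled GFP-. Vamp8 and Stx11 were outside these 48 because of their arrays titled GFP-, and were above background on every array titled GFP+. On the arrays titled GFP+ their intervals did not exclude a 2-fold rise, with differences of 0.48 (-0.25 to 1.20) for Vamp8 and 0.68 (-0.10 to 1.45) for Stx11.

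**Figure D4:**
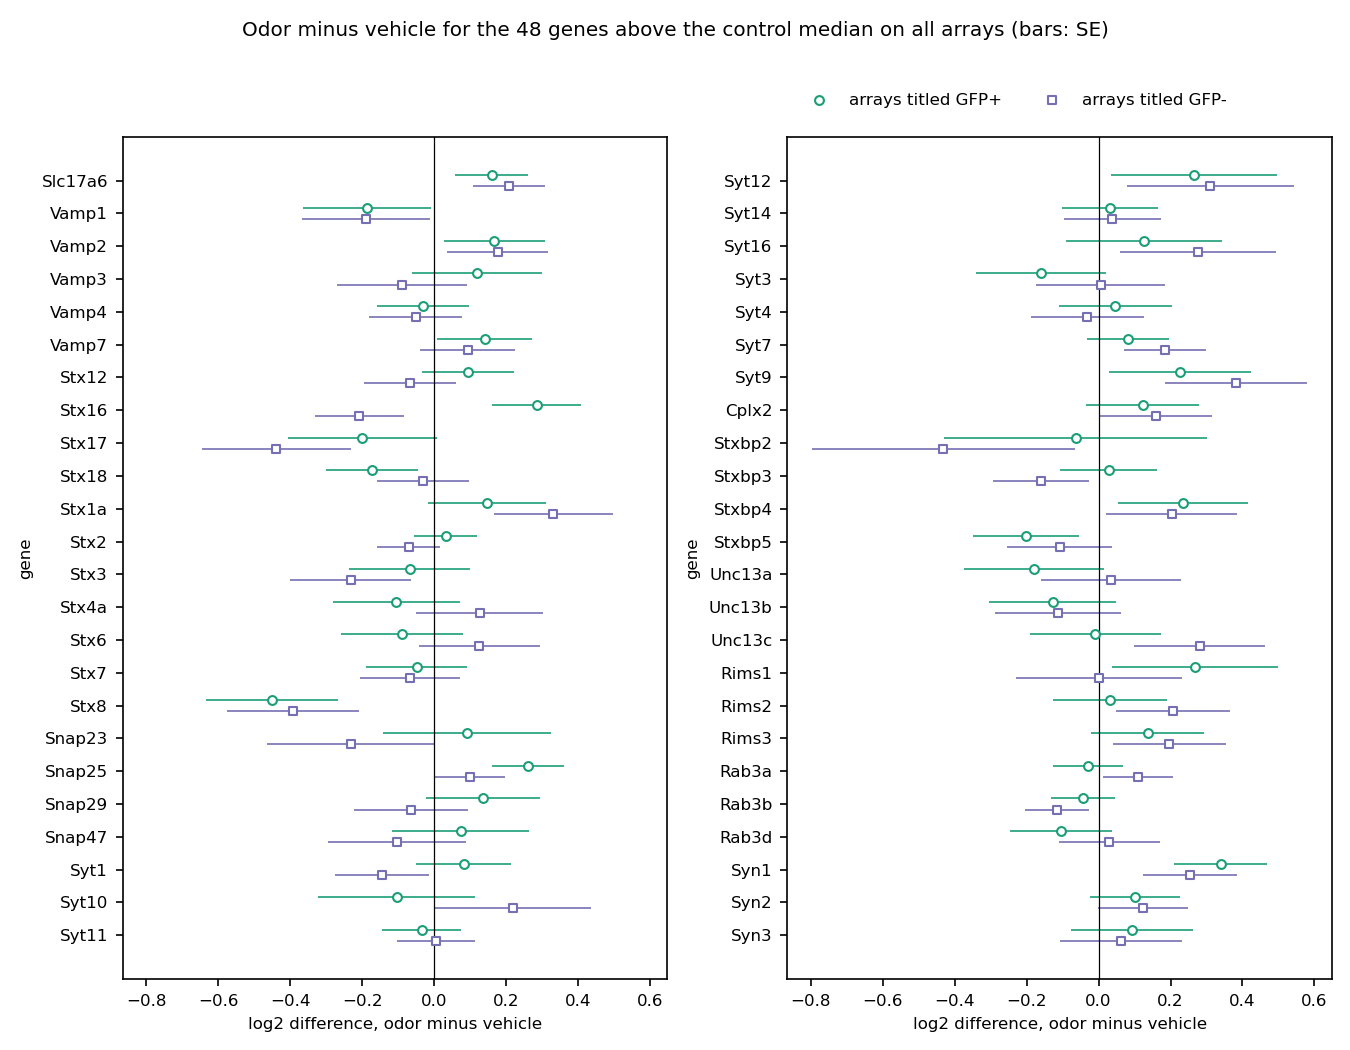
Log2 difference, odor minus vehicle, for the 48 members above background on all 16 arrays, on arrays titled GFP+ (circles) and titled GFP- (squares), with standard errors. No point passed the test, and the differences scatter on both sides of 0, with Stx8 low in both fractions at -0.45 and -0.39.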

How the data were processed

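Biotinylated cRNA from 50 to 100 ng of sorted-cell RNA was hybridised to Affymetrix arrays, per the labels' protocols. The authors deposited log2 signals, and the submitters' processing notes name Affymetrix Expression Console; the normalization before deposit is not stated in any source used here. Features with 1 gene symbol numbered 19572 of 28846, with 5222 negative controls among the rest, and the brightest feature per gene by mean was kept (19505 genes). All 67 members matched RefSeq (GRCm38.p6) by gene number.

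Two-sided tests were run with limma 3.58.1 under R 4.3.3 (lmFit, trended eBayes), adjusted after Benjamini and Hochberg over all genes at 0.05. The pool was a fixed block between fractions (6 residual degrees of freedom) and a random block between treatments (correlation 0.164, 12 degrees of freedom). The fits were tested on simulated data. There a true change of 1 log2 unit was recovered for 56% of changed genes between fractions in vehicle and 53% in odor pools. For the difference of the contrasts the share was 25%, and for odor minus vehicle it was 60% titled GFP+ and 66% titled GFP-. A change of 2 log2 units was recovered for 85% to 97%. The closest pair of arrays differed with an SD of 0.359, so none was a duplicate. The number of arrays limits the precision.

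Deviations from group means of both fractions of a pool correlated at 0.116 to 0.341. For odor and vehicle pools of 1 number they correlated at 0.198 to 0.279 titled GFP-, over 0.1 in 4 of 4 pairs, and at 0.0787 to 0.41 titled GFP+, over 0.1 in 3 of 4.

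The members follow from a symbol rule, which was proposed, like the gene lists and motifs, with earlier results of these data known. Signals by array were given for core presynaptic genes, members called in both treatments at 2-fold, up to 3 further called members per role and the smallest p-values. They were left out for Cplx1 and given for only part of the groups for some others. Syt10 was added after its values were seen, and the other members were named to account for all 67. Alternatives were other scalings, a filter at the 30th percentile of mean signal, averaged features, no variance trend, other blocks, each fraction alone and each pool left out.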

Additional observations from a re-analysis of the deposited data

Results flagged for a closer look

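In 9 of 116 groups of 4 arrays, 1 array stood apart from the other 3 by more than Dixon's criterion allows, where chance alone gives about 1 group in 20. The groups were those of the members chosen as described above and of the members called in odor pools only. Signals of Syt9, Syt11 and Cplx1, which were among them, are not printed above, and those of some others only in part. The log2 signal of Vamp8 was 5.04 on odor GFP- array 2, with 4.68 to 4.70 on the others of that group. Vehicle GFP- array 3 stood apart for 3 members: Snap25 at 16.44 (others 16.17 to 16.20), Syt1 at 15.76 (others 15.36 to 15.41) and Rims1 at 10.24 (others 10.95 to 11.05). Syt4 was at 11.52 on odor GFP+ array 4, with 11.01 to 11.06 on the others. Vehicle GFP+ array 2 was low for Stxbp2, at 9.71 (others 10.79 to 10.92), and for Rab3d, at 7.89 (others 8.12 to 8.16). Unc13a was at 6.81 on odor GFP+ array 1 (others 7.06 to 7.08) and at 7.01 on vehicle GFP- array 4 (others 7.60 to 7.64).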

How the results depend on the processing

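In vehicle pools the count of lower members (14) became 46 with median centring, 9 after cyclic loess and 4 with centring on mature neuron genes, and the count of higher members (6) became 13 with the latter. In odor pools the lower count (13) became 49, 8 and 3 under the same scalings, 7 without odor pool 1 and 8 without odor pool 3, and the higher count (6) became 15 with neuron centring. Leaving out 1 pool at a time gave 10 to 15 lower and 5 to 6 higher members in vehicle pools and 7 to 15 lower and 5 to 6 higher in odor pools, and 0 to 0 in the other comparisons. The vehicle difference of Slc17a6 changed sign with neuron centring, to 0.0364. The counts of called members stayed within 1.5 times under the other alternatives: the filter on dim genes, averaged features, no variance trend, no pool block, a random pool block and each fraction fitted alone. With the replicate number as a block, the counts for odor minus vehicle stayed at 0 in both fractions, while the genes called in all were 2 titled GFP+ and 15 titled GFP- (1 and 0 without it); the pairing changed no other call. Signals near the negative controls limit 19 of the 67 members on some or all arrays, and differences of members below background have no fold. The normalization before deposit is unknown, so differences near the median of all genes rest on the scaling.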

Other observations

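On the arrays titled GFP+, odor pools 1 and 3 stood apart from pools 2 and 4 for several members, a pattern singled out after the values were seen and given as values only. Stxbp2 was at 11.51 and 11.15 in odor pools 1 and 3 and at 9.79 and 9.53 in pools 2 and 4. Snap23 was at 11.67 and 11.80 against 10.76 and 10.82, Vamp8 at 7.74 and 7.50 against 6.59 and 5.97, and Stx11 at 7.93 and 7.02 against 6.16 and 5.71. Snap25 was lower in pools 1 and 3, at 15.73 and 15.81 against 16.23 and 16.09, as was Syn2, at 12.91 and 13.15 against 13.59 and 13.43. The summed macrophage level was 17.39 and 17.11 in pools 1 and 3 against 15.88 and 15.44 in pools 2 and 4, and the neutrophil level was 19.73 and 19.29 against 18.78 and 18.13. The part of those cells in the spread between pools was not tested.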
